A study of Mus musculus with 19 samples.

Results

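The mitochondrial genome carries its own protein-coding genes, and 8 of the messenger RNAs made from it were measured in the suprarenal abdominal aorta (SRA) of 19 male mice. They were taken from a table of 20408 genes by their names, which begin with mt-Nd, mt-Co, mt-Atp or mt-Cytb, and by a normalized count of at least 10 in at least 4 mice. All 8 rows with such a name met the minimum. They are mt-Nd1, mt-Nd2, mt-Nd3, mt-Nd4, mt-Nd5 and mt-Nd6, which encode core subunits of complex I of the respiratory chain, mt-Cytb, which encodes cytochrome b of complex III, and mt-Co1, which encodes the catalytic subunit of complex IV. The other 5 mRNAs of the 13 coded by the mitochondrial genome were not among those 20408 genes and so were not analysed here.

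Bulk RNA-Seq of poly(A)-selected RNA was done on SRAs of ApoE-/- mice on a C57BL6 background, kept on regular chow and sampled after 24 h of subcutaneous infusion from osmotic pumps. The labels give their age as 8 weeks, which in the methods is the age at the start of tamoxifen, with a rest before the infusion. IKKβ-/- mice carried SMA-CreERT2, Ikkβ Flox/Flox and ApoE-/-, so that Ikkβ is deleted by a tamoxifen-inducible Cre under a smooth muscle actin (Acta2) promoter, and only in cells in which that promoter is active. Littermates with SMA-CreERT2 and ApoE-/- served as IKKβ+/+ mice, and mice of both genotypes had received tamoxifen. The 4 groups were 5 saline-infused IKKβ+/+, 5 Ang II-treated IKKβ+/+, 4 saline-infused IKKβ-/- and 5 Ang II-treated IKKβ-/- mice, with angiotensin II (Ang II) given at 500 to 1000 ng/min/kg per the labels and at the upper of these doses per the methods. Each group holds its own run of mouse numbers, so a batch tied to those numbers and the group cannot be told apart.

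Mitochondrial DNA is transcribed from both strands into long precursors that are cut at the tRNAs between the genes. Most of the freed mRNAs receive poly(A) tails inside the organelle. Their proteins join nuclear-encoded subunits in complexes I, III and IV and in ATP synthase. In arterial smooth muscle, as in other cells, the abundance of these mRNAs depends on the number of mitochondrial genomes, their transcription and the stability of each mRNA.

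The ends of 2 of the mRNAs are shown because the tail completes them in the cell. In the GRCm38 annotation, mt-Nd4 (chrM:10167-11544, + strand) and mt-Cytb (chrM:14145-15288, + strand) stop after a lone T, and the poly(A) tail supplies the rest of the stop codon. The last 24 annotated bases of each, and for contrast those of mt-Co1 (chrM:5328-6872, + strand), are given 5′ to 3′ with the stop codon, or the base that opens it, in capitals. The other members lie at chrM:2751-3707 (mt-Nd1), chrM:3914-4951 (mt-Nd2) and chrM:11742-13565 (mt-Nd5) on the + strand and at chrM:13552-14070 (mt-Nd6) on the - strand, where mt-Nd6 overlaps the end of mt-Nd5. None of these genes has introns.
mt-Nd4: aactaattacaggcctgacaataT
mt-Cytb: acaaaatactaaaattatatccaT
mt-Co1: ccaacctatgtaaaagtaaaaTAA

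A pair of sequences is shown because it limits what can be read from mt-Nd3. The nuclear gene Gm28438 (chr1:24612775-24613119, - strand) is a copy of mt-Nd3 (chrM:9459-9806, + strand) that differs from it at 1 of 345 aligned bases, the substitution T3C with positions counted from 1 at the 5′ end of mt-Nd3. The first 48 bases of each are given with that base in capitals.
mt-Nd3: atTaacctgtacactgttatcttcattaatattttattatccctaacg
Gm28438: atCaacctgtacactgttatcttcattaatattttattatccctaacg

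Of all stretches of 84 bases, the read length, 97.7% in mt-Nd3, 61.2% in mt-Nd4 and 35.8% in mt-Co1 were identical to another annotated transcript. The shares were 4.82% in mt-Nd2, 0.689% in mt-Nd5 and 0 in mt-Nd1, mt-Nd6 and mt-Cytb. The copy of mt-Nd4 is Gm28439, which had 0 differences over its 876 bases, and those of mt-Co1 are Gm13340 and Gm29216. Reads from such stretches cannot be assigned to 1 place, so the levels of mt-Nd3 and, in part, mt-Nd4 and mt-Co1 are uncertain. Gm28438 had normalized counts of 0 to 12.7 and Gm28439 of 0 to 54.6, against 2.38 to 44.96 for mt-Nd3 and 52257 to 548472 for mt-Nd4.

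These 8 mRNAs made up a very different share of the library from mouse to mouse. They took 5.59%, 8.56%, 6.82%, 8.19% and 8.19% of the reads on genes in the saline-infused IKKβ+/+ mice (mice X2370, X2372, X2373, X2376 and X2378). In the Ang II-treated IKKβ+/+ mice they took 9.51%, 12.4%, 13.3%, 12.1% and 11.7% (mice X2350, X2352, X2356, X2358 and X2359). All 5 Ang II-treated IKKβ+/+ mice lay above all 5 saline-infused IKKβ+/+ mice. The share was 14.2%, 18.98%, 36.7% and 8.39% in the saline-infused IKKβ-/- mice (mice X2401, X2403, X2406 and X2409), and 17.3%, 7.39%, 24.6%, 35.1% and 22.9% in the Ang II-treated IKKβ-/- mice (mice X2380, X2383, X2384, X2385 and X2386). Each IKKβ-/- group held 1 mouse below every Ang II-treated IKKβ+/+ mouse and its other mice above them all, and none as low as mice X2370 and X2373. The 95% Wilson intervals were narrow, 5.58% to 5.599% in mouse X2370 and 36.7% to 36.8% in mouse X2406, and cover counting error only.

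**Figure D1:**
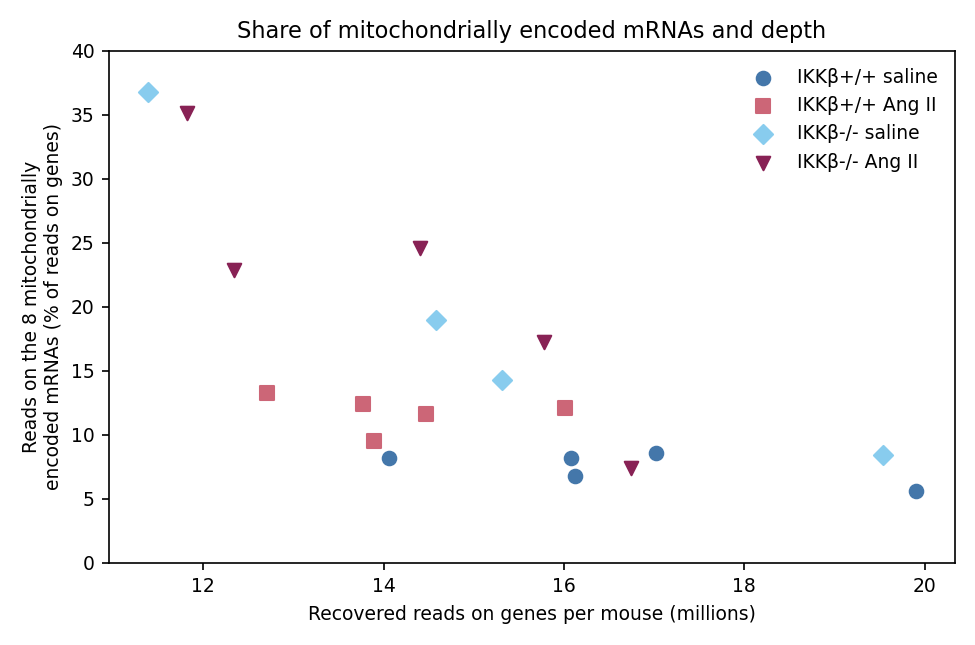
Each point is a mouse: the x axis gives the reads on genes recovered for it (labelled in units of 1e+06), the y axis the percent of them on the 8 mitochondrially encoded mRNAs, and the colour and shape the group. The mice with the fewest reads, X2406 and X2385, have the highest shares, 36.7% and 35.1%.

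Depth ran from 11382573 reads on genes in mouse X2406 to 19906694 in mouse X2370, and the levels of the 8 mRNAs moved with it. The log2 level was negatively related to the log2 number of reads on genes over the 19 mice for each of them, with Pearson r from -0.60 for mt-Nd3 to -0.79 for mt-Nd2 and Spearman rho from -0.48 for mt-Nd3 to -0.77 for mt-Nd6. Permutation p of r was 0.00641 for mt-Nd3 and 0.00015 or less for the other 7, and of rho it was 0.0397 for mt-Nd3 and 0.00184 or less for the other 7. These are 8 relations over the same mice, and the p-values are not adjusted. Without mice X2370 and X2409, the farthest from the median depth, r was -0.58 to -0.76. Within-group values cannot be given, since each group holds 4 or 5 mice, but with the group means taken from both measures r was -0.60 to -0.84. The reads of the 8 mRNAs are themselves part of the depth. With the reads outside the mitochondrial genome in its place, r was -0.76 to -0.93. Those reads are the depth less the mitochondrial reads, so a higher mitochondrial share leaves fewer of them. This r is therefore tied to the share by construction. The part of depth in the differences between groups was not tested apart from the fits named beside them.

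Over all 19 mice, mt-Co1 had the highest mean normalized count, 733351, followed by mt-Cytb with 518042, mt-Nd1 with 331403, mt-Nd2 with 309113, mt-Nd5 with 303762, mt-Nd4 with 164882, mt-Nd6 with 3367 and mt-Nd3 with 12.1. Per kilobase of annotated gene the mean normalized counts were 474661 for mt-Co1, 452834 for mt-Cytb, 346294 for mt-Nd1, 297797 for mt-Nd2, 166536 for mt-Nd5, 119653 for mt-Nd4, 6488 for mt-Nd6 and 34.9 for mt-Nd3. The order of mt-Co1 and mt-Cytb is within their spread over mice (log2 SD 0.91 and 0.93). mt-Nd6, the only member coded on the other strand, had far lower counts than the other complex I genes except mt-Nd3. The libraries were selected for poly(A) RNA and tails were not measured. Counts of different members need not give their relative abundance in the tissue.

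The mt-Co1 level was 240697, 385257, 336448, 363995 and 348555 normalized counts in the saline-infused IKKβ+/+ mice, in the order given above, and 407792, 552744, 544483, 509024 and 504172 in the Ang II-treated IKKβ+/+ mice. It was 705604, 964545, 2407140 and 401338 in the saline-infused IKKβ-/- mice and 766409, 313578, 1131164, 1949776 and 1100950 in the Ang II-treated IKKβ-/- mice. The IKKβ+/+ groups do not overlap, while each IKKβ-/- group holds 1 mouse, X2409 or X2383, within or close to the range of the saline-infused IKKβ+/+ mice and 1, X2406 or X2385, far above every IKKβ+/+ mouse. mt-Nd1, whose product sits in the membrane arm of complex I, had 96744 to 146769 normalized counts in saline-infused and 211648 to 281992 in Ang II-treated IKKβ+/+ mice. In the IKKβ-/- mice it had 285467, 395181, 1021781 and 163482 with saline and 352782, 137031, 554422, 967747 and 520547 with Ang II.

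mt-Cytb had 163733, 265433, 212513, 241568 and 225899 normalized counts in saline-infused and 334348, 410152, 407839, 408372 and 376143 in Ang II-treated IKKβ+/+ mice. In the IKKβ-/- mice it had 458362, 671542, 1691558 and 259903 with saline and 532448, 206833, 802227, 1407813 and 766110 with Ang II. Mice X2406 and X2385 were again highest and mice X2409 and X2383 lowest in their groups. mt-Nd2 ranged from 89446 to 140230, 186644 to 268682, 136259 to 883472 and 128859 to 971116 normalized counts in the 4 groups in the order saline and Ang II for IKKβ+/+, then saline and Ang II for IKKβ-/-. mt-Nd5 ranged from 96272 to 137649, 174519 to 260205, 149681 to 972620 and 129375 to 880522 in the same order. mt-Nd4 ranged from 52257 to 79887, 97798 to 127811, 77664 to 548472 and 64647 to 478578.

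The members with the lowest counts behaved less evenly. mt-Nd6 ranged from 1235 to 1870 normalized counts in saline-infused and 1640 to 2645 in Ang II-treated IKKβ+/+ mice, so that these groups overlap, and from 1511 to 10721 and 1246 to 11390 in the IKKβ-/- groups. mt-Nd3 had 2.66 to 13.5 and 4.27 to 13.2 in the IKKβ+/+ groups and 5.27 to 32.4 and 2.38 to 44.96 in the IKKβ-/- groups. The spread over mice was larger in IKKβ-/- mice for every member: for mt-Nd1 the log2 SD was 0.25 with saline and 0.16 with Ang II in IKKβ+/+ mice against 1.11 and 1.05 in IKKβ-/- mice, and for mt-Nd3 it was 0.82 and 0.56 against 1.08 and 1.45.

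**Figure D2:**
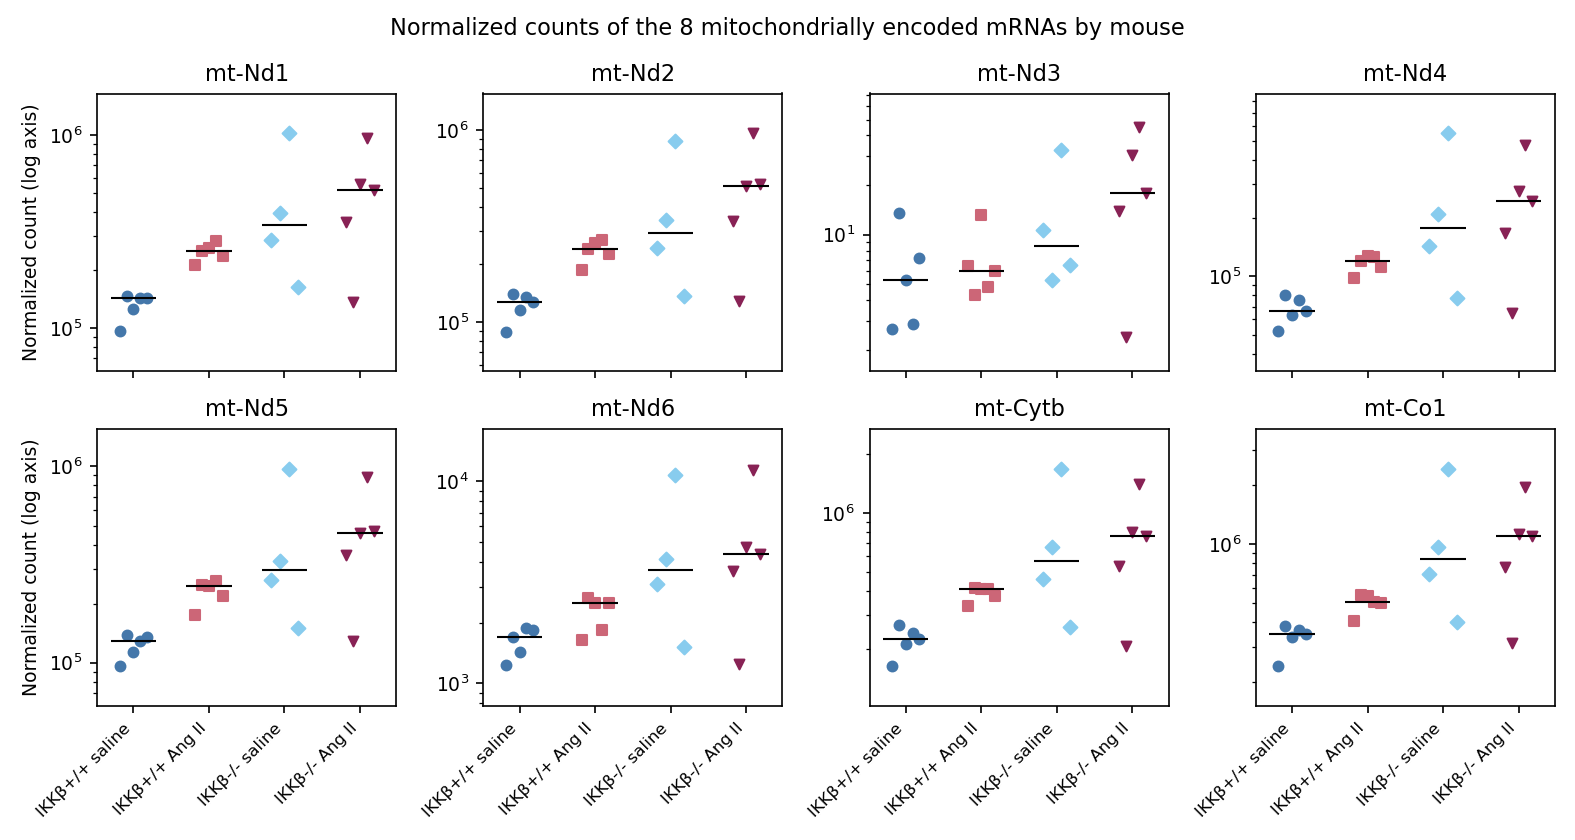
Each panel is an mRNA, each point a mouse and each line the group median, with normalized counts on a log axis. The IKKβ+/+ groups are apart for 6 of the 8 mRNAs, and tight for all but mt-Nd3, while the IKKβ-/- mice range from the IKKβ+/+ values to the highest in the series.

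The levels of the 8 mRNAs moved together from mouse to mouse. Over the 19 mice, Pearson r of the log2 levels was 0.960 to 0.999 for the 21 pairs without mt-Nd3 (Spearman rho 0.923 to 0.997) and 0.822 to 0.832 for the 7 pairs with it, which share libraries and depth. With the group means removed it was 0.970 to 0.998 and 0.779 to 0.808.

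The first comparison asked what 24 h of Ang II does in SRAs with intact IKKβ. All 8 had a log2 fold change above 0, as did 50.7% of all 14845 genes tested, and 6 of the 8, all but mt-Nd3 and mt-Nd6, had no overlap between the groups, as did 8.42% of all genes. The fitted log2 fold changes, each on the log2(value + 1) scale, were 0.97 ± 0.49 (SE) for mt-Nd2, 0.93 ± 0.49 for mt-Nd1, 0.91 ± 0.48 for mt-Nd5, 0.82 ± 0.52 for mt-Cytb, 0.79 ± 0.47 for mt-Nd4 and 0.60 ± 0.55 for mt-Co1. For mt-Nd6 and mt-Nd3 they were 0.46 ± 0.45 and 0.22 ± 0.63. The median over the 8 was 0.81, against 0.01 over all genes tested. With limma over all 4 groups, a gene was called when its Benjamini-Hochberg adjusted p was under 0.1 and its fold change above 1.2, and 0 of the 8 were called (adjusted p 0.278 to 0.888), against 8.66% of all genes. By the same fit 0 of the 8 had an unadjusted p under 0.05, against 20.3% of all genes.

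That result changed with the groups that entered the fit. The fit over all 4 groups takes 1 spread per gene from all mice. For mt-Nd1 the log2 SD was 1.11 and 1.05 in the IKKβ-/- groups, against 0.25 and 0.16 in the IKKβ+/+ groups. The SEs above therefore include the larger spread of the IKKβ-/- mice and do not give that of IKKβ+/+ mice alone. With limma on the IKKβ+/+ mice alone, the fold changes were the same and 6 of the 8 were called, as were 1904 of all 14845 genes, with adjusted p of 0.0280 for mt-Nd4, 0.0308 for mt-Nd2, 0.0339 for mt-Nd1, 0.0352 for mt-Nd5, 0.0831 for mt-Cytb and 0.0985 for mt-Nd6. The values of mt-Co1 and mt-Nd3 in that fit were 0.242 and 0.819. With the log2 reads of each mouse as a covariate, the median over the 8 was 0.14 and 0 were called, against 2061 of all 14845 genes.

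In IKKβ-/- mice the same infusion gave small differences beside the spread. The log2 fold changes were 0.54 ± 0.67 (SE) for mt-Nd3, 0.37 ± 0.52 for mt-Nd2, 0.21 ± 0.51 for mt-Nd5, 0.19 ± 0.51 for mt-Nd1, 0.11 ± 0.50 for mt-Nd4, 0.08 ± 0.48 for mt-Nd6, 0.04 ± 0.55 for mt-Cytb and -0.0042 ± 0.58 for mt-Co1, so that 7 of 8 were above 0, as were 49.6% of all genes. The groups overlapped for all 8, where 5.29% of all genes had no overlap. By limma 0 of the 8 were called (adjusted p 0.732 to 0.998), against 5.29% of all genes (2.59% with Ang II higher), and 0 had an unadjusted p under 0.05, against 17.8%. The median of 0.15 was -0.26 without mouse X2409 and 0.65 without mouse X2406.

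The difference of the Ang II effect between the genotypes, IKKβ-/- minus IKKβ+/+, had a median of -0.65 over the 8 mRNAs, of which 1, mt-Nd3, was above 0, against 49.8% of all genes. It was -0.74 ± 0.71 (SE) for mt-Nd1 with a limma adjusted p of 0.707, the lowest of the 8, 0 of the 8 had an unadjusted p under 0.05, against 11.1% of all genes, and 0% of the 14845 genes were called for this difference. The Ang II effects in the genotypes were therefore not shown to differ.

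Without Ang II, the SRAs of IKKβ-/- mice had higher means of all 8 mRNAs than those of IKKβ+/+ mice. The log2 fold changes were 1.51 ± 0.51 (SE) for mt-Nd1, 1.503 ± 0.50 for mt-Nd4, 1.47 ± 0.55 for mt-Cytb, 1.47 ± 0.51 for mt-Nd5, 1.44 ± 0.58 for mt-Co1 and 1.40 ± 0.52 for mt-Nd2. For mt-Nd6 and mt-Nd3 they were 1.26 ± 0.48 and 0.87 ± 0.67. The median was 1.46, against -0.02 over all genes, of which 47.6% were above 0. The groups had no overlap for mt-Nd1, mt-Co1 and mt-Nd5, 3 of 8, against 8.76% of all genes, and for mt-Nd2, mt-Nd4, mt-Nd6 and mt-Cytb 3 of the 4 IKKβ-/- mice lay above all IKKβ+/+ mice.

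By limma, 7 of the 8 had an unadjusted p under 0.05, against 19.2% of all genes, and 0 were called at an adjusted p of 0.107 to 0.498, against 5.47% of all genes. The count tests on recovered reads differed: edgeR's quasi-likelihood test and DESeq2 each called 7 of the 8, all but mt-Nd3, with adjusted p of 0.0444 and 0.00734 for mt-Nd1, and 835 of 14845 and 1437 of 14835 genes in all, against 812 by limma. Without mouse X2406, the median was 0.96 and 0 were called by limma, with 24 of all genes, and without mouse X2409 it was 1.84 and 7 were called, with 1726 of all genes. With log2 reads as a covariate the median was 1.04. With log2 reads outside the mitochondrial genome, a covariate chosen after seeing the data, it was 0.72. At a given depth that covariate is lower where the mitochondrial share is higher, so the covariate and the levels are tied by construction. In either fit 0 of the 8 were called, where 282 and 79 of all 14845 genes were called, in the same order.

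With Ang II in both genotypes, 4 of the 5 IKKβ-/- mice lay above every IKKβ+/+ mouse for all 8 mRNAs, so that 0 of 8 were without overlap, against 1.54% of all genes,, and mouse X2383 lay below every Ang II-treated IKKβ+/+ mouse. The log2 fold changes ran from 0.69 ± 0.52 (SE) for mt-Cytb to 1.19 ± 0.63 for mt-Nd3, with a median of 0.81 against -0.01 over all genes, of which 49.1% were above 0. By limma 0 of the 8 were called (adjusted p 0.380 to 0.553), against 0.128% of all genes, and 0 had an unadjusted p under 0.05, against 14.3%. With log2 reads as a covariate the median was 0.80. With log2 reads outside the mitochondrial genome, which are tied to the mitochondrial share by construction, it was 0.40.

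**Figure D3:**
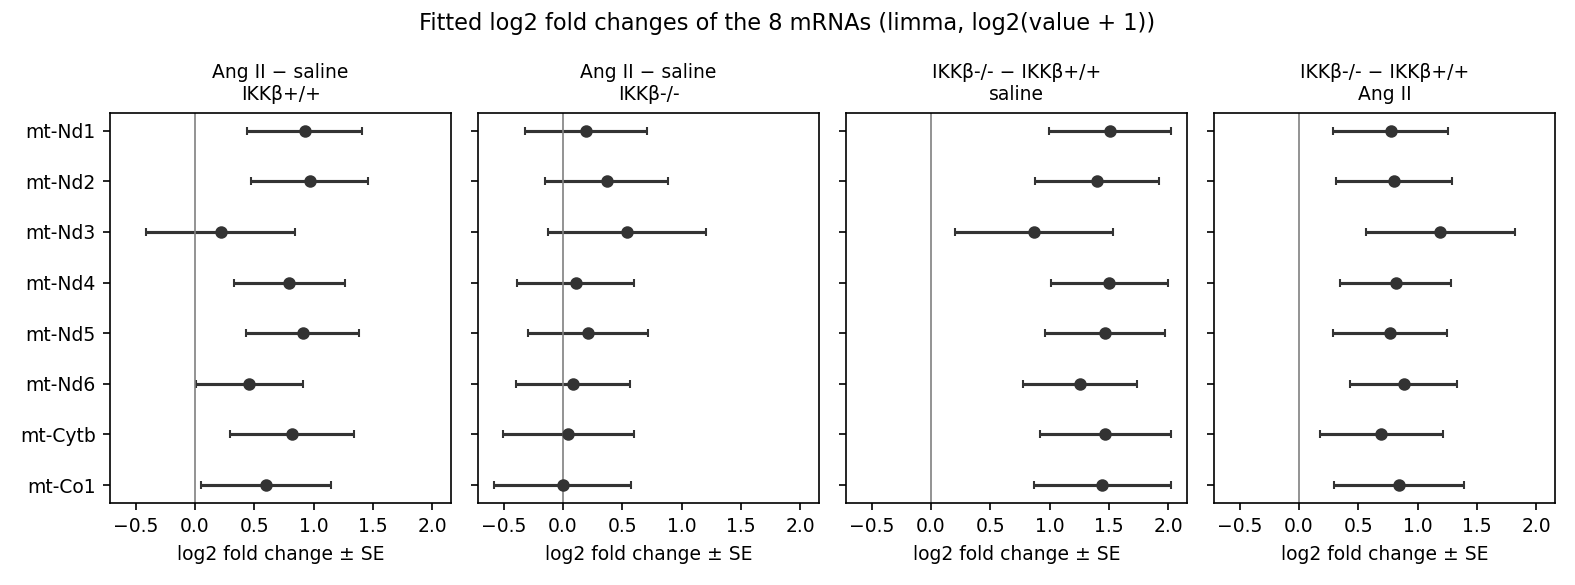
Points are fitted log2 fold changes of the 8 mRNAs and bars their standard errors, in 4 comparisons of 5 against 5 or 4 against 5 mice. The means are higher with Ang II in IKKβ+/+ mice and in IKKβ-/- mice with either infusion, and near 0 with Ang II in IKKβ-/- mice.

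The make-up of the mitochondrial mRNA reads varied less than their amount for all members but mt-Nd3, and it differed with Ang II. As shares of the reads on the 8 mRNAs, which do not depend on scaling between mice, mt-Co1 took 27.4% to 34.7%, mt-Cytb 21.1% to 23.6%, mt-Nd1 12.7% to 15.2%, mt-Nd2 11.5% to 14.6%, mt-Nd5 11.3% to 14.1% and mt-Nd4 6.36% to 7.40%. mt-Nd6 took 0.0990% to 0.174%, a 1.76-fold range, and mt-Nd3, with 3 to 29 reads in a mouse, ranged 6.46-fold. These shares were compared after they had been seen, in 32 exact permutation tests (two-sided, p not adjusted), of which 12 had p under 0.05. A share that is higher makes another lower.

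The mt-Co1 share was lower with Ang II in both genotypes: 29.2% ± 1.14 (SD, n = 5) against 33.4% ± 0.803 (n = 5) in IKKβ+/+ mice (exact p = 0.00794) and 30.4% ± 0.970 (n = 5) against 33.1% ± 0.799 (n = 4) in IKKβ-/- mice (exact p = 0.0317). The mt-Nd2 share was higher with Ang II, 13.7% ± 0.570 against 12.1% ± 0.156 in IKKβ+/+ mice (exact p = 0.00794) and 13.9% ± 0.616 against 11.6% ± 0.127 in IKKβ-/- mice (exact p = 0.0159). For mt-Nd2, no Ang II-treated mouse overlapped a saline-infused mouse in either genotype. The mt-Nd1 share was also higher, 14.4% ± 0.636 against 13.1% ± 0.366 (exact p = 0.00794) and 14.3% ± 0.351 against 13.6% ± 0.0906 (exact p = 0.0159). Between genotypes with saline, the mt-Nd2 share was lower in IKKβ-/- mice (exact p = 0.0159, n = 4 and 5), without overlap. In IKKβ+/+ mice the mt-Nd5 share was higher with Ang II, 13.3% against 12.3% (exact p = 0.0397), and the mt-Nd6 share lower, 0.129% against 0.161% (exact p = 0.0238). With 5 and 5 mice 0.00794, and with 4 and 5 mice 0.0159, is the smallest p these tests can give.

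Of the 8 shares, that of mt-Cytb alone had an exact p under 0.05 between the genotypes under Ang II. It was 21.2% ± 0.144 (n = 5) in Ang II-treated IKKβ-/- mice, against 22.5% ± 0.657 (n = 5) in Ang II-treated IKKβ+/+ mice (exact p = 0.00794) and 22.3% ± 0.586 (n = 4) in saline-infused IKKβ-/- mice (exact p = 0.0159). The exact p of the mt-Nd4 share was 0.349 to 0.960 in its 4 comparisons. Among the reads of the 5 mRNAs without a near-identical nuclear copy, mt-Nd2 still took more with Ang II, by 1.08 percentage points in IKKβ+/+ mice (exact p = 0.0159) and 2.72 in IKKβ-/- mice (exact p = 0.0159), but the mt-Nd1 differences were 0.548 (exact p = 0.159) and 0.186 (exact p = 0.635).

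**Figure D4:**
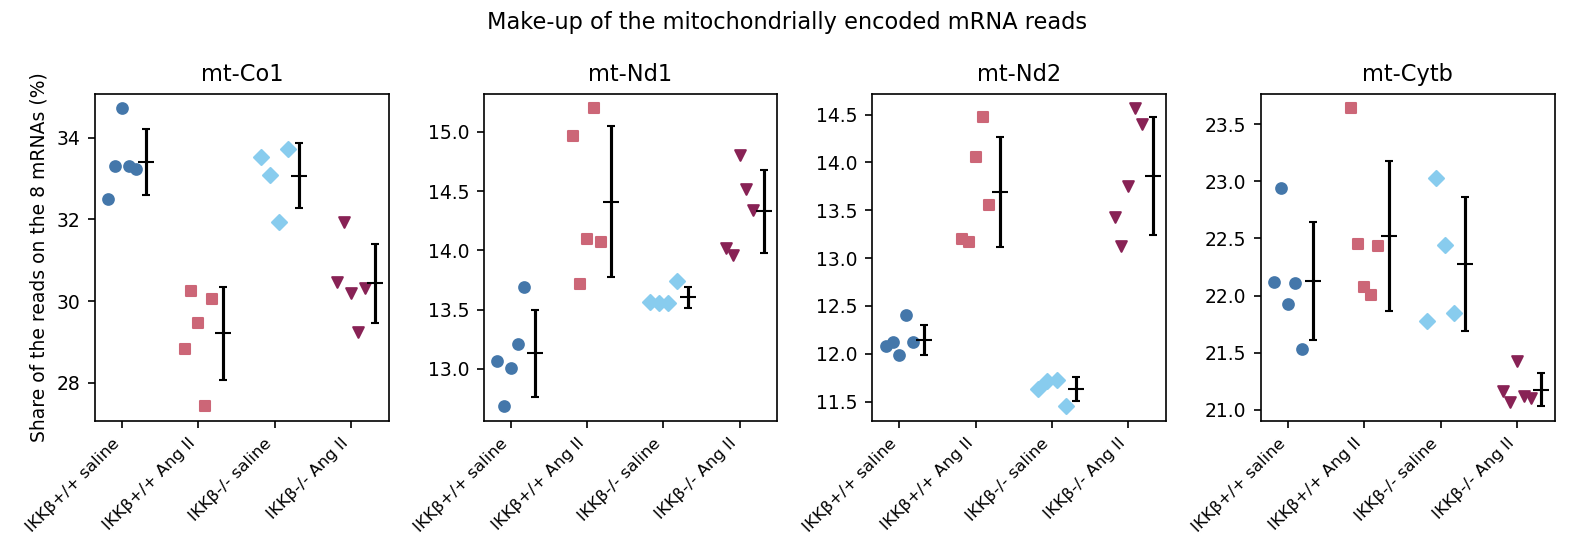
Each point is a mouse and gives the percent of the reads on the 8 mRNAs that fell on mt-Co1, mt-Nd1, mt-Nd2 or mt-Cytb, with the group mean and SD beside it; the y axes do not start at 0. mt-Co1 is lower and mt-Nd2 higher with Ang II in both genotypes.

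The other RNAs of the mitochondrial genome had like differences. The ribosomal RNAs of the organelle, mt-Rnr1 and mt-Rnr2, had log2 fold changes of 0.46 ± 0.42 (SE) and 0.73 ± 0.43 with Ang II in IKKβ+/+ mice and 1.21 ± 0.44 and 1.28 ± 0.46 for IKKβ-/- against IKKβ+/+ mice with saline, and neither was called by limma in any comparison (lowest adjusted p 0.134). Of 11 tRNA rows 7 were tested, and mt-Tm alone passed, higher in saline-infused IKKβ-/- than IKKβ+/+ mice by 1.44 ± 0.46 (limma, adjusted p = 0.0985). The libraries were selected for poly(A) RNA, so the levels of rRNA and tRNA are of what that selection left. Of 7 nuclear copies of mitochondrial DNA tested, Gm28437 alone was called, higher in saline-infused IKKβ-/- than IKKβ+/+ mice by 3.58 ± 1.10 (SE, limma, adjusted p = 0.0902). Its mean was 14.8 normalized counts over all mice. The calls of mt-Tm and Gm28437 fell in a comparison where 5.47% of all genes were called.

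Nuclear genes whose proteins assemble with the mitochondrial ones differed less in size. For IKKβ-/- against IKKβ+/+ mice with saline, 19 of 80 nuclear subunits tested were called higher and 0 lower by limma, against 3.4% of all genes called higher, with a median of 0.265. They were 6 of 37 in complex I, among them Ndufb1-ps (0.61 ± 0.16, SE), Ndufa2 (0.59 ± 0.16), Ndufc1 (0.55 ± 0.16) and Ndufa5 (0.50 ± 0.15), and 3 of 9 in complex III, Uqcr11 (0.49 ± 0.14), Uqcr10 (0.49 ± 0.13) and Uqcrh (0.39 ± 0.10). In complex IV 3 of 13 were called, Cox6c (0.59 ± 0.17), Cox8a (0.50 ± 0.13) and Cox4i1 (0.35 ± 0.11). In ATP synthase 7 of 17 were called, among them Atp5e (0.71 ± 0.20), Atp5k (0.55 ± 0.16), Atp5l (0.52 ± 0.15) and Atp5d (0.49 ± 0.15), and in complex II, which has no mitochondrially encoded subunit, 0 of 4 (median 0.20). Without mice X2406 and X2385, 0 of the 80 were called with a median of 0.265 (0.2649), and all genes called numbered 19 in place of 812; with log2 reads as a covariate 3 of the 80 and 282 of all genes were called.

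With Ang II in IKKβ+/+ mice, 2 of the 80 were called, Ndufb6 (0.40 ± 0.13) of complex I and Cox6a1 (0.32 ± 0.11) of complex IV, both higher, against 4.33% of all genes called higher; the median was 0.18. In IKKβ-/- mice with Ang II, and between genotypes with Ang II, 0 of the 80 were called, with medians of -0.02 and 0.11.

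A small number of genes that make or handle mitochondrial RNA was called, given here beside the share of all genes. With Ang II in IKKβ+/+ mice it was 1 of 23 RNA processing genes tested, against 4.33% of all genes called higher. With Ang II in IKKβ-/- mice it was 2 of the 23, 1 of 17 transcription and DNA replication genes and 1 of 10 translation factors. The share of all genes called higher there was 2.59%, below that in each of these lists, and no list was tested as a whole. Between genotypes with saline, 1 of the 23 was higher and 1 lower, against 5.47% of all genes called. Rexo2, a mitochondrial 3′ to 5′ exonuclease that degrades short RNA fragments, rose with Ang II in IKKβ+/+ mice by 0.90 ± 0.15 (SE; limma, adjusted p = 0.00407). With Ang II in IKKβ-/- mice, Mgme1, a nuclease of mitochondrial DNA maintenance, rose by 0.62 ± 0.14, Fastkd1 by 0.68 ± 0.14 and Ptcd3, a protein of the mitochondrial ribosome, by 0.32 ± 0.10, and Gfm2, a mitochondrial ribosome recycling factor, by 0.56 ± 0.12. With saline, Slirp, which binds and stabilises mitochondrial mRNAs, was higher in IKKβ-/- mice by 0.63 ± 0.16 (adjusted p = 0.0563) and Fastkd1 lower, at -0.43 ± 0.14 (adjusted p = 0.0963). Of 9 regulators of mitochondrial biogenesis 0 were called in any comparison, with medians of -0.12 to 0.08.

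**Figure D5:**
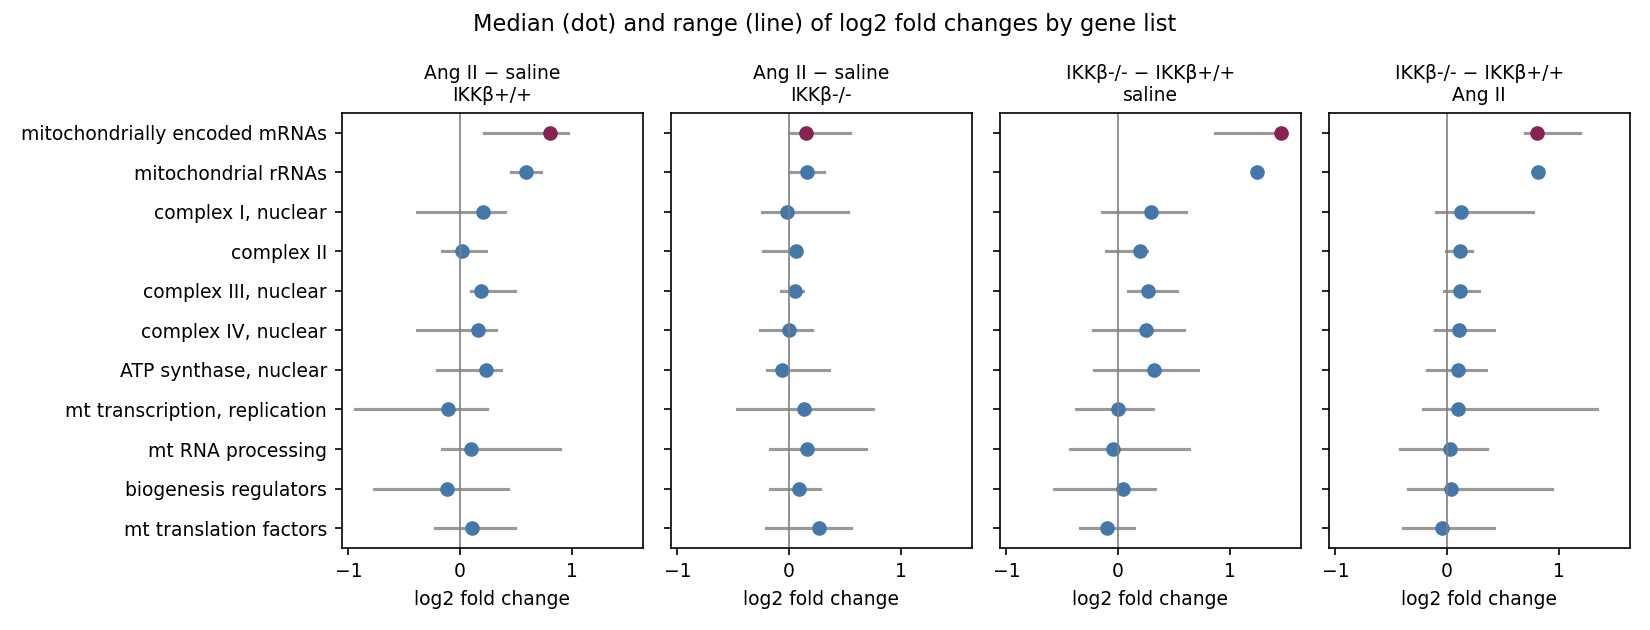
Dots are medians and lines the range of log2 fold changes over the tested genes of each list, for 4 comparisons. The medians of the mitochondrially encoded mRNAs and rRNAs lie further from 0 than those of the 9 nuclear lists drawn in IKKβ+/+ mice with Ang II and between the genotypes.

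Across the 19 mice, the nuclear genes whose log2 levels were most like the mean of the 8 mRNAs were Gm10800 (Pearson r 0.92), Gm43185 (0.90), Hnrnph3 (0.88), Tmem256 (0.87) and Commd8 (0.86). They are the highest of 14821 nuclear genes, of which 34 had r of at least 0.8 and 62 of -0.8 or below, and all share the same libraries and depth.

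Cell markers were given beside these values because the tissue is a mixture, in which fewer cells of a type and less RNA per cell cannot be told apart. All 7 smooth muscle markers were present, with Acta2 at 113336 to 301107 normalized counts, and their summed level was 331768 to 440381, 459773 to 634959, 427967 to 585613 and 305181 to 545782 in the 4 groups in the order above; it was thus also without overlap between saline-infused and Ang II-treated IKKβ+/+ mice. White adipocyte markers summed to 980.5 to 38135 over all mice. With Ang II in IKKβ-/- mice 5 of 5 tested were called higher, against 2.59% of all genes. Between genotypes their median log2 fold change was -2.36 with saline and 1.14 with Ang II. With saline 4 of the 5 had an unadjusted limma p under 0.05, against 19.2% of all genes, and with Ang II 0. In neither were any called. Brown adipocyte markers summed to 1099 to 7643, with Ucp1 at 0 in 3 mice. That sum is mostly Dio2, at 1068 to 7517 normalized counts, so it mainly follows this gene. By Ang II effect, 2 of 5 brown adipocyte markers tested rose in the IKKβ+/+ genotype (median log2 fold change -0.61). All 5 rose in the IKKβ-/- genotype (median 1.86), and 0 were called in either. Striated muscle markers, of a mitochondria-rich tissue, summed to 48.6 to 213.6 and 160.2 to 583.7 in the IKKβ+/+ groups and to 130.3 to 461.2 and 173.3 to 430.7 in the IKKβ-/- groups. Between genotypes, their median log2 fold change was 1.24 with saline and -0.51 with Ang II, where 1 of 5 tested was above 0. By limma 3 of 5 had an unadjusted p under 0.05 with saline, against 19.2% of all genes, and 0 with Ang II. In both comparisons 0 were called. With Ang II in IKKβ+/+ mice 4 of the 5 were above 0 (median 0.75) and 1 was called higher, against 4.33% of all genes. In IKKβ-/- mice 1 of the 5 was above 0 with Ang II (median -0.59), and 0 were called. Pearson r of these 5 with the mean of the 8 mRNAs was -0.67 to 0.33 over the 19 mice. Macrophage markers summed to 4617 to 6358 with saline in IKKβ+/+ mice and 2344 to 3669 in IKKβ-/- mice. For endothelial markers the median log2 fold change was -0.62 for Ang II against saline in IKKβ+/+ mice, with 1 of 5 called lower, and -0.80 between genotypes with saline, with 0 called. Fibroblast markers had medians of -0.57, with 1 of 5 called lower, and -0.48, with 0 called. Of all genes, 8.66% were called in the first of these comparisons and 5.47% in the other. The part of these cells in the levels of the mitochondrial mRNAs was not tested.

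Ikbkb, which encodes IKKβ and is the deleted gene, had 673.4 ± 78.6 (SD, n = 5) and 725.9 ± 46.3 (n = 5) normalized counts in saline-infused and Ang II-treated IKKβ+/+ mice and 515.2 ± 74.3 (n = 4) and 547.7 ± 87.9 (n = 5) in IKKβ-/- mice. The log2 difference with saline was -0.39 ± 0.12 (SE; limma, adjusted p = 0.0988), in a tissue whose other cells keep the gene.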

How the data were processed

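The authors sequenced poly(A)-selected, stranded libraries as 84-base single reads, and per the labels and methods used Trimmomatic 0.35, STAR 2.7.1a, RSEM and DESeq2 1.30.1 on GRCm38. The deposited values, here called normalized counts, are a signal: gene counts divided by DESeq2 size factors. In each mouse, 100% of the values were whole multiples of what 1 read is worth (within 0.01 reads), which gave back the reads used for depth, shares and count tests.

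Values were fitted with limma 3.58.1 (R 4.3.3) as log2(value + 1) over all 4 groups, after keeping 14845 of 20408 genes with a value of at least 10 in at least 4 mice; edgeR 4.0.16 and DESeq2 1.42.0 on the reads were alternatives. P-values were Benjamini-Hochberg adjusted over all genes tested. The tests of read shares, the fit without the 2 mice with the fewest reads and the covariate of reads outside the mitochondrial genome were added after seeing the data. Scripts were tested on simulated data. Sequences and positions are from GENCODE transcripts of GRCm38. All members, other mitochondrial rows, nuclear copies, the deleted gene, up to 4 called genes a list and the 5 most alike nuclear genes were eligible to be named. The members and lists were chosen with earlier results of these data known. Nothing states which animals shared a litter, so p-values measure the spread between these mice.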

Additional observations from a re-analysis of the deposited data

Results flagged for a closer look

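In 68 groups of 4 or 5 mice, taken from the normalized counts and read shares of the 8 mRNAs and their summed share, 4 held a mouse set apart from the rest by Dixon's criterion at 95%, where chance gives about 1 in 20. mt-Nd3 was highest in mouse X2356 among the Ang II-treated IKKβ+/+ mice, at 13.2 normalized counts. The mt-Cytb share of the reads on the 8 mRNAs was highest in mouse X2350 of the same group, at 23.6%, and in mouse X2384 among the Ang II-treated IKKβ-/- mice, at 21.4%. The mt-Nd1 share was highest in mouse X2409 among the saline-infused IKKβ-/- mice, at 13.7%. For 0 of the 8 mRNAs did the difference of the Ang II effect between genotypes pass limma's test.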

How the results depend on the processing

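The number of the 8 mRNAs called was 0 in all 5 comparisons as reported. For Ang II against saline in IKKβ+/+ mice it was 6 with only the compared groups in the fit and 2 with array quality weights, where 1904 and 2074 of all genes were called, against 1286. For IKKβ-/- against IKKβ+/+ mice with saline it was 4 with only the compared groups, 6 with array quality weights and 7 each with edgeR and DESeq2. Of all genes 1420, 1902, 835 and 1437 were called there, against 812. With a mouse left out it was 0 to 7 by limma (1 without X2380, 5 without X2383, 1 without X2385, 7 without X2409). Without these mice, in that order, 1124, 917, 750 and 1726 of all genes were called. In the other comparisons the number of the 8 called was 0 under every setting run, and under the other settings of these comparisons too. Members with an exact permutation p under 0.05 for Ang II against saline numbered 6 in IKKβ+/+ mice, and 6 to 7 with a mouse left out. In IKKβ-/- mice they numbered 0, also with a mouse left out. For IKKβ-/- against IKKβ+/+ mice with saline they numbered 6, and 3 to 7 with a mouse left out. With Ang II they numbered 0, and 0 to 8 with a mouse left out. The 8 came without mouse X2383, which alone lay below the Ang II-treated IKKβ+/+ mice. The share of all genes passing this exact test is not given here. The median log2 fold changes moved by less than the SD of the mean log2 level of the 8 mRNAs within groups, 0.79, under each setting. That SD is about as large as some of the medians, so it does not show them to be stable. For Ang II in IKKβ+/+ mice the median went from 0.81 to 0.14 with log2 reads as a covariate. With a mouse left out the medians were 0.71 to 0.87 and -0.26 to 0.65 for Ang II in IKKβ+/+ and IKKβ-/- mice. They were 0.96 to 1.84 and 0.50 to 1.22 between genotypes with saline and Ang II, and -1.04 to -0.15 for the difference of effects.

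Single fold changes near 0 changed sign. With log2 reads as a covariate those of Ang II in IKKβ+/+ mice were -0.0384 for mt-Co1, -0.44 for mt-Nd3 and -0.26 for mt-Nd6, and in IKKβ-/- mice -0.0478 for mt-Nd1, -0.14 for mt-Nd4, -0.0210 for mt-Nd5, -0.18 for mt-Nd6 and -0.20 for mt-Cytb, and the difference of effects was 0.0808 for mt-Nd6. With the reads outside the mitochondrial genome as the covariate, chosen after seeing the data, they were -0.41 for mt-Nd3 and -0.20 for mt-Nd6, then -0.0443 for mt-Nd1, -0.14 for mt-Nd4, -0.0200 for mt-Nd5, -0.17 for mt-Nd6 and -0.19 for mt-Cytb, and 0.0217 for mt-Nd6. For mt-Co1 with Ang II in IKKβ-/- mice the value was 0.0032 with TMM scaling, 0.0809 scaled to reads outside the mitochondrial genome, 0.36 with array quality weights and 0.19 without mice X2406 and X2385, also chosen after seeing the data. For mt-Cytb it was -0.0405 with edgeR and -0.0525 with DESeq2. With a mouse left out, Ang II in IKKβ-/- mice gave -0.20 to 0.68 for mt-Nd1, -0.0385 to 0.86 for mt-Nd2, -0.39 to 0.47 for mt-Co1, -0.32 to 0.62 for mt-Nd4, -0.18 to 0.72 for mt-Nd5, -0.36 to 0.58 for mt-Nd6 and -0.36 to 0.54 for mt-Cytb. mt-Nd3 gave -0.0164 to 0.51 in IKKβ+/+ mice, and the difference of effects was -0.0373 to 0.90 for mt-Nd3 and -0.82 to 0.12 for mt-Nd6. The mt-Cytb share with Ang II in IKKβ+/+ mice was lower by 1.80 percentage points (-1.80) among the 5 mRNAs without a near-identical copy. The cause of these changes was not tested. No paired analysis was possible because no mouse number occurs in more than 1 group.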
